A study of Mus musculus with 19 samples.

Results

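Mature dendritic cells (DCs) that express Ccr7 were examined at the site of a burn and tendon injury that leads to heterotopic ossification in mice. Cells were selected on measured counts of unique molecular identifiers (UMIs, the tags that count single transcripts). A cell needed at least 1 UMI of Ccr7, at least 1 UMI of at least 2 of the 4 genes Fscn1, Cacnb3, Il4i1 and Ccl22, at least 3 UMIs of the class II gene H2-Ab1, and none of Cd3e, Cd79a or Pdgfra. Of 39541 cells, 251 met the rule.

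The cells came from 19 droplet libraries of the mouse hindlimb injury site, from C57BL/6J mice and a strain that carries LysmCre and floxed Tgfb1 alleles, in which Cre is driven in myeloid cells. The labels name both genotypes for the series and give neither for a library. Libraries were made at day 0 (4), day 3 (3), day 7 (4) and day 21 (4) after burn/tenotomy, and at day 7 after daily intraperitoneal p7N3 at 10 mg/kg (4), a peptide that activates CD47. The labels name no vehicle for day 7, although the study set p7N3 against mice given PBS. p7N3 replicate 4 carries no day of harvest, and the labels list the burn for day 0 too, although the study took day 0 as uninjured. The study describes its single-cell replicates as a gauge of variation between mice, but the labels tie no library to an animal, so p-values measure the spread between these libraries, part of which may be technical.

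DCs take up antigen in tissue and, on maturation, exchange uptake receptors for the chemokine receptor CCR7, which guides them along the ligands CCL19 and CCL21 into lymphatics and on to lymph nodes. Mature DCs present peptides on MHC molecules, carry costimulatory proteins such as CD40, CD80 and CD86, and also make proteins that restrain T cells, such as PD-L1. Type 2 DCs (CD209a, CD301b) and type 1 DCs (XCR1, CLEC9A) are the main conventional subsets from which mature DCs arise.

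The genes that chose the cells are given as a description. Ccr7 (chr11:99144196-99155077, minus strand, GRCm38) had 1590, 2124, 2391 and 1722 CPM (UMIs of the gene per 1000000 UMIs) in the mature DCs of day 7 replicates 1 to 4. It had 1891, 2140, 1845 and 2479 CPM in those of p7N3 replicates 1 to 4. The ranges of the p7N3 and day 7 libraries overlapped. At day 3 the level was 602.1, 1649 and 3095 CPM, so that replicate 1 was the lowest of all libraries. In that replicate a single cell held 80380 of the 164435 UMIs of the mature DCs. It was among the cells rich in stromal, C1q and endothelial UMIs that are described further on. The part of this cell in the low level was not tested. Fscn1 (chr5:142960343-142973185), an actin bundling protein, had a mean of 1855 ± 391 CPM (SD, n = 8) over the day 7 and p7N3 libraries. Cacnb3, a calcium channel subunit, had 299.7 ± 69.5 CPM, and Il4i1, a secreted amino acid oxidase, had 1306 ± 474 CPM in the same libraries. Ccl22, a ligand of CCR4, varied more, with 448, 1740, 1036 and 864.8 CPM at day 7 and 1010, 2161, 1721 and 2155 CPM with p7N3.

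A median cell had 6671 UMIs, 13 of them from Ccr7, 6 from Fscn1, 2 from Cacnb3, 7 from Il4i1, 2 from Ccl22 and 77 from H2-Ab1. Of the 4 genes, 70 cells had a UMI of exactly 2, 78 of 3 and 103 of all 4. Just outside the rule, 114 cells had a UMI of only 1 of the 4 and 299 had none. A further 292 cells met every other condition but lacked a Ccr7 UMI, 63 had under 3 UMIs of H2-Ab1, and 57 failed on Cd3e, Cd79a or Pdgfra. Just inside it, 24 cells had a single Ccr7 UMI and 24 had 3 to 9 UMIs of H2-Ab1.

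The label was checked against genes that the rule did not use. Flt3, the cytokine receptor of DCs, had 134.7 ± 47.1 CPM in the mature DCs (n = 8 libraries), 114.7 CPM in type 2 DCs and 3.56 CPM in cells gated as C1qa-high macrophages. Zbtb46, a transcription factor of conventional DCs, had 35.4 ± 18.4, 11.9 and 1.68 CPM in the same order. Both values were above those of the macrophage gate. Flt3 and Zbtb46 were picked from a list of 10 DC identity genes, Zbtb46 after its value was seen. The text compares no other gene of that list with the macrophage gate, so the check rests on these genes alone. Counts for the list against the other DC subsets are given further on. In each of those comparisons more of the tested genes were lower than higher in the mature DCs. The rule removed cells with a UMI of Cd3e or Cd79a, so that few transcripts of T and B cells were left by the choice itself. T and NK cell markers summed to at most 20.9 CPM in any library, and B cell markers to at most 59.7 CPM.

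Not every cell was free of transcripts from other cell types. Of the 251, 20 held at least 50 UMIs of 7 stromal genes (11 cells), at least 20 of C1q genes (10 cells) or at least 10 of endothelial genes (2 cells). Their median was 15239 UMIs, against 6541 UMIs in the other 231. These 20 cells were not spread evenly over the groups: 14 lay in day 7, 4 in p7N3 and 2 in day 3. All 7 stromal genes were found in the mature DCs of every day 7 library, where they summed to 17925, 14924, 2097 and 8309 CPM in replicates 1 to 4, led by Col1a1 in 3 of them. With p7N3 the sums were 1098, 1244, 1462 and 5973 CPM. Without the 20 cells the means were 1427 ± 180 CPM at day 7 and 1344 ± 233 CPM with p7N3 (n = 4 each). The 20 cells were chosen partly on these same genes, so that the sums had to fall without them. No 2 libraries shared more than 22 cell barcodes. The 999 shared barcodes over 171 pairs compare with 992 calculated for independent barcodes, and no barcode was a mature DC in 2 libraries.

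**Figure D1:**
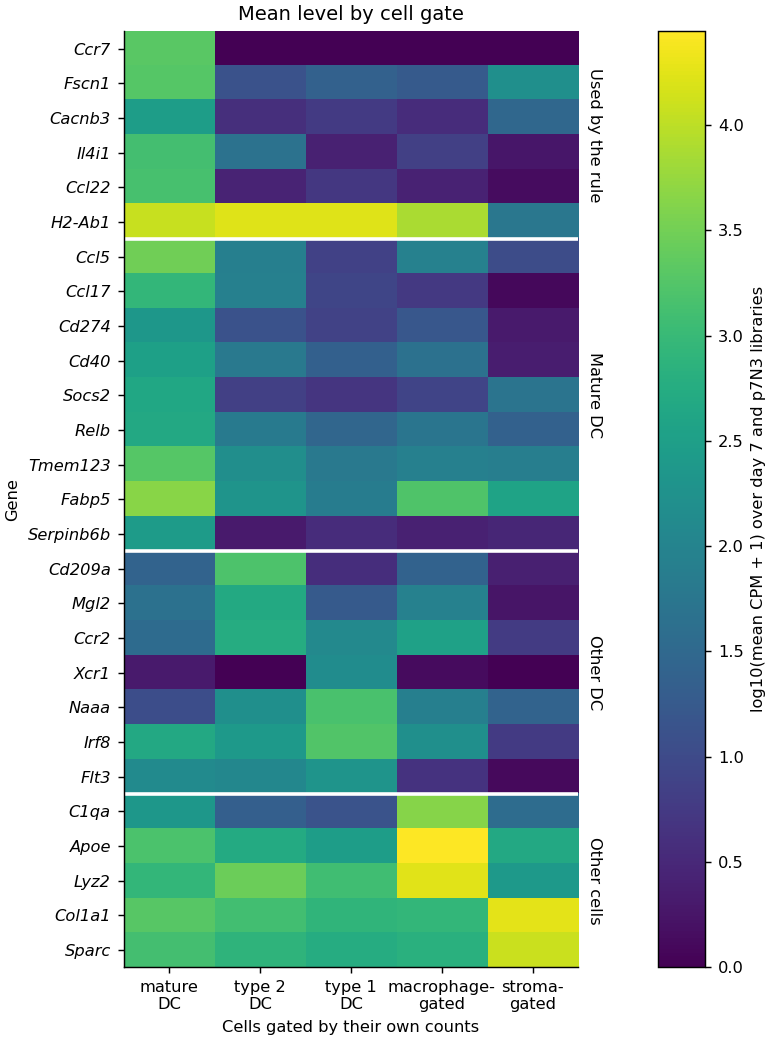
Heat map of log10(mean CPM + 1) over day 7 and p7N3 libraries (8 libraries, 7 for type 1 DCs), with genes in rows and cells gated by their own counts in columns. Genes used by the rule form the top block; Flt3 stands at 134.7 CPM in mature DCs and at 3.56 CPM in the macrophage gate.

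The next question was when the mature DCs were present. None was found among 3561 cells of day 0, and this count of 0 limits the share to 0.0842%. At day 3 they made up 0.407%, 0.374% and 0.591% of cells. At day 7 they made up 0.674%, 0.866%, 0.573% and 1.24%. At day 21 the shares were 0.260%, 0%, 0.317% and 0.153%, from 10 cells in all. The 4 day 7 libraries were above each day 21 library and above each day 0 library. Of the 26 day 3 cells 13 had a UMI of at least 3 of the 4 genes, against 80 of 110 at day 7. With that stricter rule the mean shares were 0.227% at day 3 and 0.611% at day 7. With at most 1 UMI of C1qa they were 0.299% and 0.787%. The day 3 and day 7 shares did not overlap in these 2 settings. They overlapped under the main rule, among DCs and without the cells rich in other cells' transcripts.

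The mean share was 0.457% ± 0.117 (SD, n = 3) at day 3, 0.838% ± 0.294 (n = 4) at day 7 and 0.183% ± 0.140 (n = 4) at day 21. Day 7 exceeded day 0 and day 21 with an exact two-sided permutation p of 0.0286 in each case, the smallest that 4 against 4 can give, and p = 0.0857 after Benjamini-Hochberg adjustment over 6 comparisons. Day 3 against day 0 gave p = 0.0571, the smallest that 3 against 4 can give (adjusted p = 0.114, exact permutation). Day 7 against day 3 gave p = 0.114, and day 21 against day 0 gave p = 0.143 (adjusted p = 0.171 for both, exact permutation). No comparison of shares passed an adjusted threshold of 0.05. With these library numbers a pass needed the smallest p in every comparison of 4 against 4, p7N3 against day 7 among them. The lack of a pass is therefore not read as a lack of change.

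Depth differed between the time points. In the day 0 libraries the median cell had 3414 to 4693 UMIs. The medians of the day 3 libraries ran from 10288 to 11186, those of day 7 from 7100 to 8679 and those of day 21 from 8873 to 12406. With every cell thinned to 3000 UMIs, none of 2345 day 0 cells met the rule (1216 were too shallow), which allows up to 0.128%. The mean shares were then 0.243% at day 3, 0.643% at day 7, 0.171% at day 21 and 0.759% with p7N3. The thinned day 3 and day 7 shares did not overlap.

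As a share of DCs, counted as mature, type 2 and type 1 together, the mature cells made up 20.6% ± 5.81 at day 3, 22.5% ± 7.49 at day 7 and 20.4% ± 5.81 with p7N3. At day 21 they made up 33.3%, 0%, 23.1% and 21.4% of the few DCs left. The 30 type 2 and type 1 DCs of day 0 were accompanied by no mature DC. Day 21 minus day 7 was -3.04 percentage points on this scale (exact permutation p = 0.743), and -0.66 percentage points among all cells. Type 2 DCs themselves were 0.546% ± 0.234 of cells at day 21 and 2.31% ± 0.603 at day 7. Of cells with a UMI of Ptprc, the gene of the leukocyte antigen CD45, mature DCs were 1.07% ± 0.316 at day 7 and 0.702% ± 0.817 at day 21, and these shares overlapped (exact permutation p = 0.429).

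p7N3 left the share within the spread of the day 7 libraries. The shares were 1.20%, 1.17%, 0.590% and 0.594% in p7N3 replicates 1 to 4, with a mean of 0.887% ± 0.341 against 0.838% ± 0.294 (exact permutation p = 0.943). Replicates 1 and 2 were near the highest day 7 library and replicates 3 and 4 near the lowest. A binomial interval shows how little a single library fixes this value, since the 15 cells of p7N3 replicate 3 give 0.331% to 0.972% (exact Clopper-Pearson, 95%). Such intervals and the limits for a count of 0 cover counting error only.

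**Figure D2:**
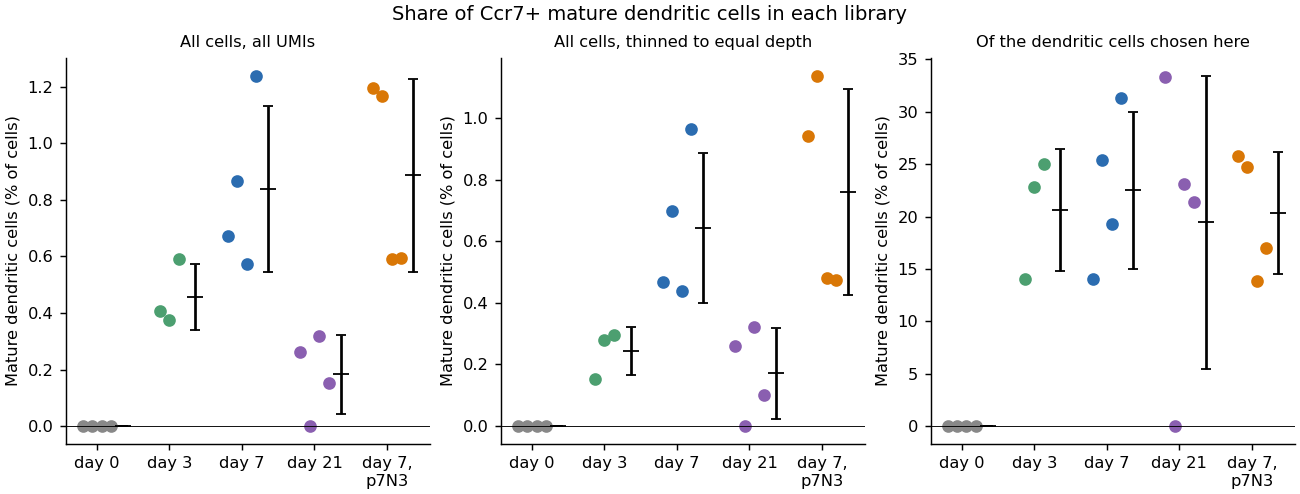
Mature DCs as a percent of all cells (left), of all cells thinned to 3000 UMIs (middle) and of the DCs counted here (right), with 1 point per library and the mean ± SD in black. Day 0 lies at 0 in every panel, and day 7 has a mean of 0.838% of all cells against 0.183% at day 21.

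The transcriptome of the mature DCs was then set against that of type 2 DCs (at least 2 UMIs of Cd209a, no Ccr7), with both kinds summed within each of 9 libraries: day 3 replicate 3, day 7 and p7N3. Of 3114 genes tested, 1338 passed an adjusted p of 0.05 in edgeR's quasi-likelihood test, which is 43.0% of them. Of these, 671 (21.5%) were higher and 667 (21.4%) lower in mature DCs. Against type 1 DCs (a UMI of Xcr1 or Clec9a) in 7 libraries, 1048 of 2372 genes passed, or 44.2%, with 532 (22.4%) higher and 516 (21.8%) lower. The gates of the type 2 and type 1 DCs also limited C1qa to 1 UMI, which the rule for mature DCs did not. Both gates required at least 3 UMIs of H2-Ab1 and none of Ccr7. Genes of the rule were left out of these counts, but the other genes were counted in the same cells that the rule chose, and both comparisons use the same mature DCs. A gene could pass the filter on low counts through its level in a single kind of cell, and its direction was then fixed by the filter. Levels in the next paragraphs are CPM scaled by edgeR's TMM factors, as mean ± SD over libraries, and differences are log2 fold changes with their standard error (SE).

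Among the chemokines, Ccl5 (chr11:83525778-83530518), which draws T cells and monocytes, had 2675, 4108, 4695 and 1542 CPM in the mature DCs of day 7 and 1144, 4486, 2824 and 2510 CPM with p7N3, before TMM scaling. It was 3360 ± 1579 CPM in mature DCs and 80.2 ± 66.4 CPM in type 2 DCs after scaling, a log2 fold change of 5.45 (SE 0.29, edgeR adjusted p = 1.00e-09, higher in 9 of 9 libraries). The lowest mature value, 1284 CPM, was above the highest type 2 value, 214.5 CPM, and such a gap between the groups was found for 14.1% of all genes tested. Against type 1 DCs the log2 fold change was 8.77 (SE 0.29). Ccl5 had a UMI in 67.7% of mature DCs, 10.5% of type 2 DCs and 3.72% of type 1 DCs, at median depths of 6671, 6062 and 8582 UMIs, and in 5.32% of stromal cells at a median of 13483 UMIs. With every cell thinned to 3000 UMIs the shares were 60.1%, 7.25%, 2.17% and 1.26% in the same order.

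Ccl17, the other main ligand of CCR4, was far less even. It had 237.4, 900.1, 138.1 and 169.4 CPM at day 7 and 638.7, 917.1, 3454 and 606.7 CPM with p7N3, and 0, 121.2 and 10.2 CPM at day 3. Its log2 fold change over type 2 DCs was 5.03 (SE 0.83, edgeR adjusted p = 0.000139), with the mature cells higher in 8 of 9 libraries and overlapping ranges. A Ccl17 UMI was seen in 24.3% of mature DCs, 3.65% of type 2 DCs and 0.386% of stromal cells. Cxcl16, a membrane-bound chemokine, was higher by a log2 fold change of 2.50 (SE 0.14), whereas the inflammatory chemokines Ccl3 and Ccl4 fell by 1.32 and 2.47 on the log2 scale relative to type 2 DCs. Of 11 listed chemokines, 7 were tested against type 2 DCs, of which 3 were higher, 2 lower and 2 not past the threshold. Against type 1 DCs 5 were tested, of which 3 were higher and 1 lower.

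Of 10 chemokine and lipid receptors, 5 were tested against type 2 DCs, of which 2 were higher and 3 lower, and 3 against type 1 DCs, of which 2 were higher and 1 lower. Ccr2, the receptor by which monocytes and tissue DCs follow CCL2, was at 44.2 ± 28.1 CPM in mature DCs and 606.3 ± 81.0 CPM in type 2 DCs, a log2 fold change of -3.83 (SE 0.25). Ccr1 differed from type 2 DCs by -1.57. Gpr183, a receptor for oxysterols, was higher by 1.87 (SE 0.28) over type 2 and by 2.93 (SE 0.26) over type 1 DCs. Ltb4r1, a leukotriene B4 receptor, was lower than in type 2 DCs by a log2 fold change of -4.05. Cxcr4 was at 166 ± 49.3 CPM against 122 ± 42.2 CPM in type 2 DCs (log2 fold change 0.43, SE 0.17, edgeR adjusted p = 0.0495), a call lost in 14 of 18 alternative settings. It was higher than in type 1 DCs by 3.36.

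Costimulatory and immunoregulatory genes are described next. CD40, which receives the signal of CD40 ligand on T cells, had a transcript level of 210.6, 273.5, 276.2 and 130.6 CPM at day 7 and 308.9, 396.1, 427.5 and 679.9 CPM with p7N3. Cd40 was higher than in type 2 DCs by a log2 fold change of 2.51 (SE 0.14, edgeR adjusted p = 1.49e-09). Cd80, Cd86 and Cd83 were higher by 1.90, 0.75 and 0.96, while Tnfsf9 and Cd48 differed by -1.16 and -1.42. Of 11 costimulatory genes, 8 were tested against type 2 DCs and 5 were higher, 2 lower and 1 not past the threshold. Of 6 tested against type 1 DCs, 4 were higher, 1 lower and 1 not past the threshold.

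Cd274 (chr19:29367455-29388095), which encodes PD-L1, had 188.2, 159.1, 207.1 and 229.4 CPM at day 7 and 321.4, 279.9, 180.0 and 251.1 CPM with p7N3. In type 2 DCs it was at 12.1 ± 5.58 CPM, a log2 fold change of 4.33 (SE 0.21, edgeR adjusted p = 3.86e-10), and the ranges did not overlap. Cd200, whose receptor restrains myeloid cells, was higher by 3.97 (SE 0.26). Socs2 (chr10:95385362-95417180), an inhibitor of cytokine signalling, was at 508.0 ± 104 CPM against 6.05 ± 3.58 CPM, a log2 fold change of 6.20 (SE 0.19). Tnfrsf4, which encodes OX40, was at 152.6 ± 37.7 CPM against 1.24 ± 1.58 CPM. Of 15 immunoregulatory genes, 8 were tested against type 2 DCs; 7 were higher and Socs3 was lower. All 8 tested against type 1 DCs were higher. Tnfrsf4 had no UMI in the type 1 DCs of these libraries and passed the filter on low counts through the mature DCs alone, which fixed its direction. Socs2, Cd274 and Fas were near the floor there, at means of 4.22, 7.24 and 7.07 CPM. The count of 8 is therefore not read as a result about the list.

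Few cytokine genes could be tested. Of 16 listed, 3 were tested against type 2 DCs, with 1 higher, 1 lower and 1 not past the threshold, and 2 against type 1 DCs, with 1 higher and 1 not past the threshold. Il12b, the p40 subunit of IL-12 and IL-23, was too rare for the test, with 71.7, 278.5, 336.6 and 74.1 CPM at day 7 and 20.9, 25.8, 67.5 and 146.4 CPM with p7N3. A UMI of Il12b was seen in 26 of 251 mature DCs (10.4%), in 3 of 768 type 2 DCs, in 0.0234% of stromal cells at a median depth of 13483 UMIs, and in 0 of 188 type 1 DCs, which allows a share of up to 1.60% of cells with a UMI and sets no limit on cells that express the gene. Il1rn, the antagonist of the IL-1 receptor, was higher than in type 2 DCs by a log2 fold change of 3.11 (SE 0.27). Tgfb1, a ligand studied in this injury, was at 147.0 ± 44.5 CPM in mature and 280.3 ± 55.2 CPM in type 2 DCs (log2 fold change -0.93, SE 0.15), with the genotype of each library unknown. Tgfb1 did not pass against type 1 DCs, where its level was 142.3 ± 34.2 CPM (log2 fold change 0.01, edgeR adjusted p = 0.969). Il1b was at 1872 ± 747 CPM against 2184 ± 343 CPM in type 2 DCs and did not pass (log2 fold change -0.30), whereas it was higher than in type 1 DCs by 1.04 (SE 0.28, edgeR adjusted p = 0.00786). Among the receptors, Il7r and Il21r were higher by 2.10 and 1.51, and Ifngr1, Csf1r and Csf2ra differed by -2.10, -1.44 and -0.61. Of 14 cytokine receptors, 12 were tested against type 2 DCs, of which 2 were higher, 6 lower and 4 not past the threshold.

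Members of the NF-kB pathway formed a further group. NF-kB proteins are held in the cytoplasm by inhibitors such as NFKBIA until a signal frees them, and RELB with NFKB2 forms the noncanonical arm that is known from DC maturation. The kappaB consensus, by name the site of NF-kB, was searched on both strands of promoters from 250 bases before to 50 after the start in RefSeq tables on GRCm38.p6. It is shown for members of the pathway (Nfkb2, Nfkbia, Rel) and for the class I genes described further on (H2-K1, H2-D1, H2-Q7, B2m), since each of these 7 genes was higher than in type 2 DCs. Stretches are written 5′ to 3′ on the strand of the gene with the match in capitals, and were chosen after the values were seen and only among genes with a match. Of 77 genes with a promoter in the tables that were list members higher than in type 2 DCs, among the largest increases or used by the rule, 12 held a match. These were chosen genes, and nothing is read from that share.
Nfkb2, chr19:46305680-46305739, plus strand: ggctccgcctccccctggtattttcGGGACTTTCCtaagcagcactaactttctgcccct
Nfkbia, chr12:55492648-55492701, minus strand: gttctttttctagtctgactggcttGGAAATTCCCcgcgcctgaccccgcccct
Rel, chr11:23771027-23771086, minus strand: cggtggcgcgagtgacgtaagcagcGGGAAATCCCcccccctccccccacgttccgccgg
H2-K1, chr17:34000424-34000483, minus strand: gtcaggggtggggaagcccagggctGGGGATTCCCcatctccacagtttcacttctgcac
H2-D1, chr17:35262898-35262957, plus strand: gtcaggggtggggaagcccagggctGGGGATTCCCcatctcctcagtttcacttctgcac
H2-Q7, chr17:35438997-35439056, plus strand: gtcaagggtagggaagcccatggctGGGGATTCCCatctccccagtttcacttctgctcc
B2m, chr2:122147536-122147595, plus strand: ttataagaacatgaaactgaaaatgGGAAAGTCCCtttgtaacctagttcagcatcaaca
The 3 heavy-chain genes share the same 10 matched letters, 101 bases before the start in H2-K1, 161 in H2-D1 and 123 in H2-Q7. In Nfkbia and B2m the match lies on the opposite strand. The Nfkb2 window shown belongs to a start within the annotated gene (chr19:46304320-46312385). Nfkb2 held further matches that are not shown, among them some nearer the start of the annotated gene, in windows from position 46304673 on. Counted by gene, the consensus was found in a promoter of 1388 of 27025 genes (5.14%). A match describes letters in the window, and binding was not measured here.

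Relb had 358.4, 437.6, 422.9 and 388.3 CPM at day 7 and 530.2, 688.9, 573.8 and 407.9 CPM with p7N3. It was higher than in type 2 DCs by a log2 fold change of 2.97 (SE 0.11, edgeR adjusted p = 1.79e-11), with no overlap between 397.5 to 819.7 CPM and 51.2 to 87.8 CPM. Nfkb2, Nfkbia and Rel were higher by 1.53, 0.70 and 1.33. Birc2 and Traf1, whose products act in signalling by TNF receptors, were higher by 2.81 and 1.60. Of 17 NF-kB genes, 14 were tested against type 2 DCs, and 10 were higher and 4 not past the threshold. All 13 tested against type 1 DCs were higher, as were 22.4% of all genes tested there. Their median log2 fold change was 2.29 beside -0.05 for all genes tested. The list was chosen with earlier results of these data known. A gene could also pass the filter on low counts through the mature DCs alone. The count of 13 is therefore not read as a result about the list.

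Genes of the cytoskeleton and of migration followed. Samsn1, Tbc1d4 and Marcksl1 were higher than in type 2 DCs by log2 fold changes of 3.22, 4.05 and 2.87. The actin regulator Myo1g was higher by 1.90 and the adhesion molecule Icam1 by 2.15, while Itgb7, an integrin chain, differed by -3.04. Of 17 listed genes, 15 were tested against type 2 DCs and 10 were higher, 3 lower and 2 not past the threshold.

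Some of the largest differences were in genes known from mature DCs in other tissues. Serpinb6b, a protease inhibitor, was at 325.3 ± 194 CPM against 1.05 ± 2.37 CPM in type 2 DCs, a log2 fold change of 7.76 (SE 0.31). Nudt17 was at 187.9 ± 90.1 CPM against 0.466 ± 0.939 CPM (log2 fold change 7.61). Fabp5, a fatty acid carrier, had the smallest p-value of all genes and was chosen for that after the values were seen. It had 3436, 3780, 3012 and 4642 CPM at day 7 and 5611, 5317, 5130 and 4561 CPM with p7N3, and it was higher than in type 2 DCs by 4.56 (SE 0.10, edgeR adjusted p = 6.07e-14). The membrane protein Tmem123 was higher by 3.66 (SE 0.13). Of 22 such genes, 16 were tested and 15 were higher than in type 2 DCs, and all 14 tested were higher than in type 1 DCs. Nudt17 had no UMI in the type 1 DCs of these libraries and passed the filter on low counts through the mature DCs alone, which fixed its direction. Zmynd15, Serpinb6b and Serpinb9 were near the floor there, at means of 1.89, 3.00 and 3.87 CPM. Since the list was drawn up from mature DCs, its direction is not independent evidence. Mreg, H2-Eb2, Serpinb9, Ankrd33b and Zmynd15 completed the 10 largest increases over type 2 DCs, with log2 fold changes between 5.48 and 5.72.

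In type 1 DCs, 4 of the 10 most increased genes had no UMI among 1337268, so that they passed the filter on low counts through the mature DCs alone. Against a floor of 3 counts over the 7 libraries, Nudt17 was at least 79.5-fold higher in mature DCs, Mreg at least 58.0-fold, Tnfrsf4 at least 56.4-fold and Adora2a, an adenosine receptor, at least 38.1-fold.

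Genes of antigen presentation were taken by class. The class II chains H2-Aa and H2-Eb1 were within 0.08 of type 2 DCs on the log2 scale and did not pass, although both passed as lower when no filter on low counts was used and as higher, at 0.19 and 0.24, without the 20 cells rich in other cells' transcripts. The invariant chain Cd74 was at a log2 fold change of -0.20 (edgeR adjusted p = 0.0769). The peptide loading genes H2-DMa and H2-DMb1 differed by -1.43 (SE 0.14) and -1.96 (SE 0.15), Ciita, the master regulator of class II, by -0.87 and the protease Ctss by -0.46. H2-DMb2 was higher by 0.92. Of 12 class II genes, all 12 were tested, and 2 were higher, 5 lower and 5 not past the threshold. Against type 1 DCs 4 were higher, 4 lower and 4 not past the threshold, and Ctss was higher there by 0.38 (SE 0.12, edgeR adjusted p = 0.0188), a call lost in 4 alternative settings.

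All 11 tested class I genes were higher than in type 2 DCs. B2m, the light chain of class I, was at 5107 ± 1228 CPM against 2819 ± 324 CPM (log2 fold change 0.83, SE 0.08). Psme2, an activator of the immunoproteasome, was higher by 2.38 (SE 0.09) and its subunit Psmb8 by 1.13. Against type 1 DCs, the subset specialised in class I presentation, 5 of 11 class I genes were higher and 5 lower. B2m, H2-K1 and H2-D1 were higher there by 1.46, 1.60 and 0.96, and Psmb9, Psme1, Tap1 and Tap2 differed by -1.26, -0.69, -0.45 and -0.57. The calls of Tap1 and Tap2 were lost in 14 and 7 alternative settings. Reads of the similar genes H2-K1, H2-D1 and H2-Q7 may be split between them.

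Uptake and pattern recognition genes were mostly lower than in type 2 DCs. The lectin Clec10a was at 30.6 ± 32.7 CPM in mature and 552.5 ± 136 CPM in type 2 DCs, a log2 fold change of -3.96 (SE 0.31). Cd300a, Clec4a2 and Lyz2, the last encoding lysozyme, differed by -3.47, -2.16 and -1.70. Of 19 uptake and pattern recognition genes, 11 were tested, of which 10 were lower, none higher and Clec12a, at -0.49, not past the threshold. Of 5 tested against type 1 DCs, 2 were lower, 2 not past the threshold and 1, the Fc receptor chain Fcer1g, higher by 1.00. Ifitm6, Ly6c2, Cd209d, Cd7, Tm6sf1, Cysltr1 and Ppfia4 were among the 10 most decreased genes, with log2 fold changes between -4.43 and -3.56. Against type 1 DCs, Naaa, Gcsam and Wdfy4 differed by -6.75, -6.80 and -4.47.

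UMIs of the genes that mark type 2 and type 1 DCs were sparse in the mature DCs. Of the 251 cells, 52 had a UMI of Cd209a, Mgl2 or Clec10a, 3 had one of Xcr1 or Clec9a, none had both and 196 had neither. Cd209a had a UMI in 7.57% of mature DCs, 6.47% of cells of the macrophage gate and 1.68% of stromal cells, and Clec10a in 11.2%, 43.3% and 2.24%, at median depths of 6671, 7094 and 13483 UMIs. The shares of Cd209a and Clec10a in the mature DCs were not above those of the macrophage gate beyond counting error, so a UMI of either was not read as a lineage. Mgl2 was not compared in this way, and its UMIs were not read as a lineage either. The transcription factor Irf8 lay between the subsets, at a log2 fold change of 1.07 (SE 0.29) over type 2 and -1.91 (SE 0.15) against type 1 DCs. Batf3, required by type 1 DCs, showed the same order with 1.43 and -0.88. Naaa, the only other type 1 lineage gene tested against type 2 DCs, was lower there at -3.55. Of 10 DC identity genes, 7 were tested against type 2 DCs, of which 2 were higher, 3 lower and 2, Flt3 among them, not past the threshold. Of 5 tested against type 1 DCs none was higher, 4 were lower, Flt3 among them at -0.58, a call lost in 10 alternative settings, and 1 did not pass. Of the type 2 lineage genes 5 of 6 tested were lower than in type 2 DCs, and all 5 type 1 lineage genes tested were lower than in type 1 DCs.

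Of 8 survival genes, 6 were tested against type 2 DCs, of which 3 were higher and 3 not past the threshold. Bcl2a1b and Bcl2a1d, near-identical paralogs whose reads may be split, were higher than in type 2 DCs by 3.17 and 2.82. Of 12 immediate early and heat shock genes, which also respond to tissue dissociation, 7 were lower than in type 2 DCs, all of them immediate early genes, among them Fos at -1.82 and Atf3 at -2.18. The other 5, which include all the heat shock genes, did not pass. Of 11 tested against type 1 DCs, 4 were higher, Fos was lower by a log2 fold change of -1.19 and 6 did not pass. Of 20 interferon response genes, 6 were tested against type 2 DCs, of which 3 were higher, among them Isg15 and Irf1 by 1.11 and 1.04, and 3 not past the threshold. Of 4 tested against type 1 DCs, 2 were higher, 1 lower and 1 not past the threshold. Cd47 was higher by 0.32 (SE 0.10) and Sirpa, the receptor of CD47, was at -0.59 (SE 0.13) against type 2 DCs and higher than in type 1 DCs by 2.31 (SE 0.33, edgeR adjusted p = 6.85e-05). Skil, an inhibitor of SMAD proteins, was higher than in type 2 DCs by 1.06. Of 13 genes of the TGF beta pathway, 4 were tested there, of which 1 was higher, 1 lower and 2 not past the threshold.

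Transcripts of other cells moved with these comparisons. C1qb and Apoe, both macrophage genes, were higher than in type 2 DCs by 1.93 and 1.21. Of 9 macrophage markers 7 were tested there, of which 3 were higher and 4, among them Mrc1 and Cd68 at -2.14 and -1.18, lower, with a median log2 fold change of -1.18. Of 3 tested against type 1 DCs, 2 were higher. Without the 20 cells rich in other cells' transcripts Apoe stood at -0.12, and with at most 1 UMI of C1qa C1qb stood at -0.19. S100a8 and S100a9, neutrophil genes, were higher by 0.82 and 0.93, calls lost in 6 and 7 alternative settings. The stromal genes Col3a1, Dcn and Sparc were higher than in type 1 DCs by 1.33, 1.22 and 1.16, calls lost in 7, 6 and 5 settings, and none of 7 stromal genes passed against type 2 DCs. The 10 macrophage genes summed to 2850 ± 1914 CPM in the mature DCs of day 7 and 2124 ± 1432 CPM with p7N3, led by Apoe, and Mertk was at 0 in 5 of the 8 libraries. Without the 20 cells 1429 genes passed against type 2 DCs and 989 against type 1 DCs. The part of those transcripts in the other results was not tested.

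Although the mature DCs were at most 1.24% of the cells of a library, they held much of some transcripts. Over the day 7 and p7N3 libraries, 78.1% ± 23.2 of the UMIs of Apol7c lay in them (6 libraries with enough UMIs), 68.3% ± 25.6 of those of Il12b (4 libraries) and 53.5% ± 30.2 of those of Ccl17 (8 libraries). For Ccl17 the share ran from 6.30% to 84.2% between libraries. They held 20.2% ± 7.46 of Ccl5 and 14.9% ± 4.46 of Cd274. Of the UMIs of all genes they held 0.546% ± 0.190 (8 libraries). For genes of the rule, which chose the cells, the shares were 77.8% for Ccl22, 56.4% for Ccr7, 55.7% for Il4i1, 6.96% for Cacnb3, 6.73% for Fscn1 and 4.14% for H2-Ab1.

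**Figure D3:**
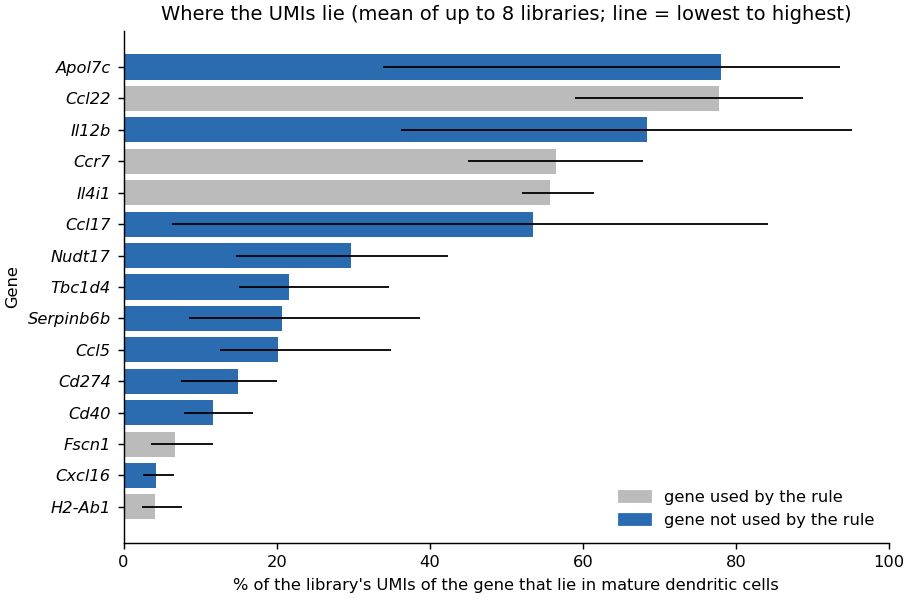
Percent of each gene's UMIs in a library that lay in the mature DCs (x axis), as the mean over the day 7 and p7N3 libraries with enough UMIs (up to 8), with a line from the lowest to the highest library; grey bars are genes of the rule. Apol7c reached a mean of 78.1% and Ccl17 ran from 6.30% to 84.2%.

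The effect of p7N3 was tested within the mature DCs, with the 4 libraries of each group. No gene passed among 4155 tested in edgeR (0%), 457 had an unadjusted p under 0.05, and DESeq2 called 3 genes, all lower. Without day 7 replicate 3 the count was 47 and without p7N3 replicate 4 it was 61, with 46 and 57 of them lower. Ccl17 was at 1494 ± 1464 CPM with p7N3 and 389.0 ± 390 CPM at day 7, a log2 fold change of 1.90 (SE 0.64, edgeR adjusted p = 0.271), and p7N3 replicate 3 held the highest value. Cd40 and Cd200 stood at log2 fold changes of 1.00 (SE 0.29) and 0.90 (SE 0.23), with edgeR adjusted p of 0.198 and 0.169, so that neither passed. The levels of both did not overlap between the groups, which was so for 223 of the 4155 genes tested (5.37%). Cd274, Relb and Fabp5 stood at 0.40, 0.45 and 0.44.

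Stromal and cell cycle genes are given next, none of which passed. The 7 stromal genes, all tested, had a median log2 fold change of -2.27 beside -0.02 for all genes, and 6 of them had an unadjusted p under 0.05. The stromal sums of the day 7 libraries and the 14 day 7 cells rich in other cells' transcripts, given above, moved with this difference. Without all 20 such cells of any group no gene passed in edgeR among 2579, with 134 at an unadjusted p under 0.05. Of 10 cell cycle genes, 8 were tested, with a median log2 fold change of -3.24 and none past the threshold, although 6 of them had an unadjusted p under 0.05. Top2a was at 2.37 ± 4.73 CPM with p7N3 and 56.5 ± 70.6 CPM at day 7, a spread as wide as the mean.

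**Figure D4:**
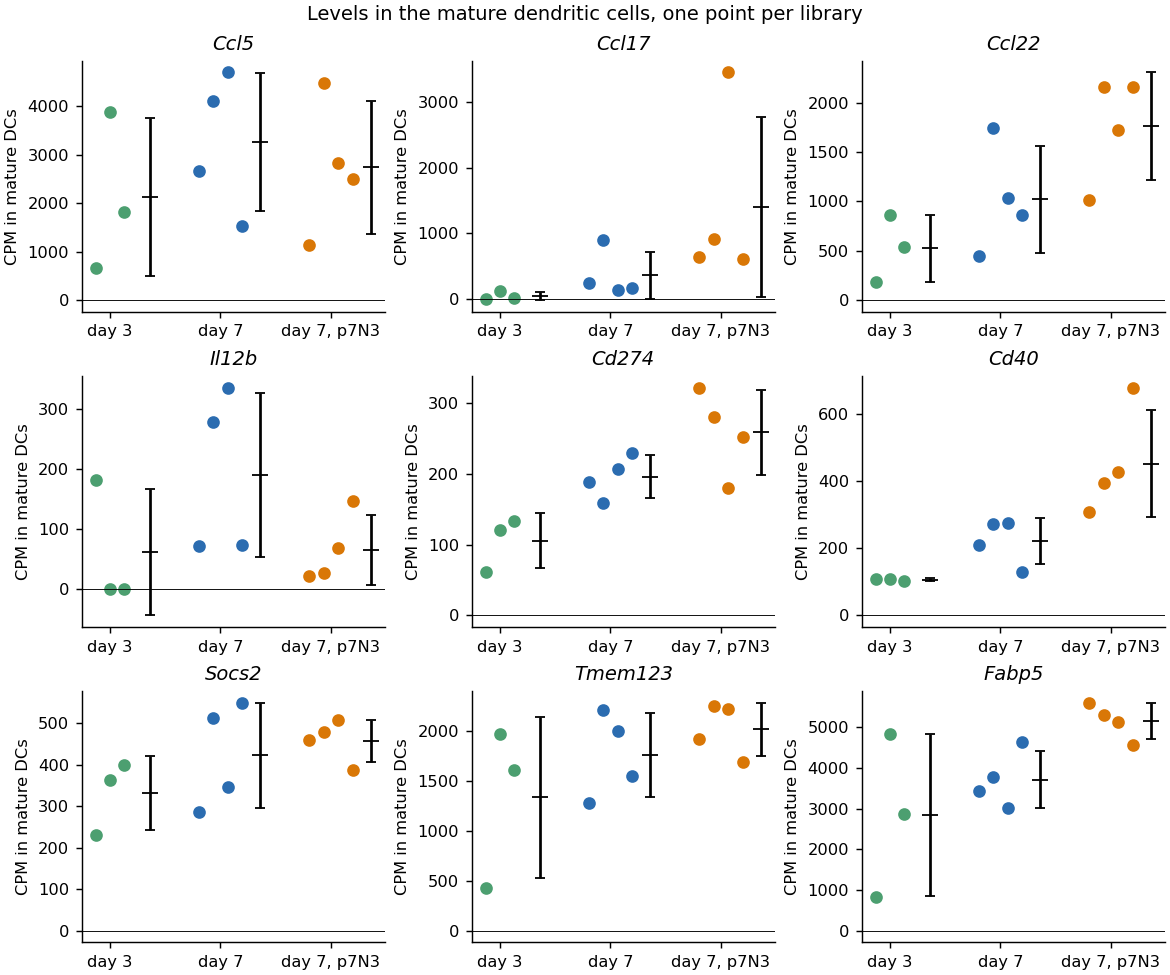
CPM (before TMM scaling) of 9 genes in the mature DCs of each day 3, day 7 and p7N3 library, with 1 point per library and the mean ± SD in black. Ccl17 reaches 3454 CPM in p7N3 replicate 3 and 0 in day 3 replicate 1, while Cd40 lies between 308.9 and 679.9 CPM in all p7N3 libraries.

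Day 7 was compared with day 3 where a library held at least 5 mature DCs, a minimum lowered from 10 after the data were seen, since the day 3 libraries held 8, 8 and 10 cells. A single cell rich in other cells' transcripts held 80380 of the 164435 UMIs summed for day 3 replicate 1. In edgeR 16 of 2524 genes passed (0.634%), of which 6 were higher and 10 lower at day 7, with adjusted p between 0.038 and 0.0495. Leaving out a library gave 35 genes without day 7 replicate 3, 2 without day 3 replicate 3 and 0 without any of the other 5, and each gene named here lost its call in 6 or more settings. Cst3, which encodes the protease inhibitor cystatin C and is abundant in DCs, was at 12176 ± 4845 CPM at day 7 and 3818 ± 1068 CPM at day 3 (log2 fold change 1.67, SE 0.30). Rgs1, a regulator of chemokine receptor signalling, and Anxa5 were higher by 1.32 and 1.46. Cfp, which encodes properdin, and Zfp36l2 differed by -1.95 and -2.17, the chemokine Ccl7 by -2.45 and the lactate transporter Slc16a3 by -2.18.

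Others of the 16 belong to different cell types. Acta2, of smooth muscle and myofibroblasts, and Lum, of fibroblasts, were higher at day 7 by 6.22 and 3.97, and the neutrophil gene Retnlg and the synovial gene Prg4 differed by -4.17 and -3.78. The 7 stromal genes, all tested, had a median log2 fold change of 3.17. All 7 had an unadjusted edgeR p under 0.05, and 1 passed. They summed to 840.3 to 1855 CPM at day 3 and 2097 to 17925 CPM at day 7. The 2 mast cell and erythroid genes tested had a median of -1.37, and both had an unadjusted edgeR p under 0.05. Neutrophil markers summed to 2311, 1467 and 2111 CPM in the mature DCs of day 3 and to 439.0, 54.7, 828.6 and 321.2 CPM in those of day 7, led by S100a8 in all day 3 libraries. The same markers were lower at day 7 in other kinds of cells too. Means at day 3 and day 7 were 1739 and 159.6 CPM in type 2 DCs and 2810 and 594 CPM in the macrophage gate. In stromal cells they were 1639 and 169.2 CPM. The part of these transcripts in the difference was not tested. Without the 20 cells rich in other cells' transcripts 34 of 1476 genes passed, and with a UMI of at least 3 of the 4 genes 0 of 1629 did, with 251 at an unadjusted p under 0.05. With RLE in place of TMM factors 3 genes were higher and 3 lower.

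Day 21 held 10 mature DCs and 102199 of their UMIs in 3 libraries of 4, 3 and 3 cells. These were under the minimum of 5 cells, and day 21 was not tested against day 7. Summed over the libraries, Ccl22 was at 4276 CPM (95% exact Poisson interval 3884 to 4696) and Ccl17 at 97.8 CPM (46.9 to 179.9), intervals that cover counting error only. Ccl22 came from replicates 1 and 3 with 5166 and 6414 CPM, against 210.9 CPM in replicate 4. Ccl5 was at 3151 CPM and Cd274 at 205.5 CPM, both within the range of the day 7 libraries.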

How the data were processed

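The authors aligned the reads with Cell Ranger to mm10 and deposited raw UMI counts per gene and barcode, without normalization, one matrix per library; the notes also name GRCh38, although the genes are mouse genes. The deposited counts of 19 libraries were filtered here, a cell being a barcode with 500 or more genes whose mitochondrial share did not exceed 25% of its UMIs. The library totals were 3019467 to 5383855 UMIs at day 0 and 11064153 to 39870492 elsewhere. Doublets were kept, and removing the top 3.9% of Scrublet scores was an alternative. The file of day 0 replicate 1 lists all 737280 barcodes and was filtered alike.

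Members and gene lists were chosen with earlier results of these data known. Counts were summed per library and kind of cell with at least 10 cells. They were tested with edgeR 4.0.16 (quasi-likelihood, TMM factors, filter on low counts, library as a block for kinds of cells, an adjusted p of 0.05), with DESeq2 1.42.0 as an alternative. Shares were compared with exact permutation tests. Python 3.11.15, scipy 1.17.1, scanpy 1.11.5 and R 4.3.3 were used, and the tests were tried on simulated data. Named genes were the 10 largest changes in a direction past the threshold, changed alike in every library (or not overlapping between groups), with at least 20 CPM, and of each list the 4 genes with the highest level in mature DCs plus all that passed where 6 or fewer did. Genes of the lists that this rule did not name (Apol7c, Atf3, Birc2, Cd48, Cd80, Ciita, Csf1r, H2-DMa, H2-DMb1, H2-DMb2, Icam1, Ifngr1, Il7r, Itgb7, Mrc1, Myo1g, Nfkb2, Psmb8, Tbc1d4, Tnfsf9, Zbtb46 and, against type 1 DCs, Psmb9, Psme1, Tap1 and Tap2) were chosen after their values were seen. Gene coordinates are from GENCODE vM21 on GRCm38. Alternatives were RLE factors, no filter, other count and cell minimums, thinning, stricter rules for the cells, no library block, the replicate number as a block and each library left out. Limits on C1qa, the DC denominator, replicates 1 to 3 only, the lower cell minimum for day 3 and removal of cells rich in stromal, C1q or endothelial UMIs were added after the data were seen. Expression was not tested at day 0, which held no mature DC, or at day 21, whose libraries were under the cell minimum. Clec7a, Trac, Trbc2, Igkc and Ighm were not analysed here.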

Additional observations from a re-analysis of the deposited data

Results flagged for a closer look

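Of 38 groups of 4 libraries examined for a value far from the others (shares of mature DCs and CPM of 17 genes described by library), 2 held one, and chance gives about 5%. Both concerned Ccl17. Day 7 replicate 2 had 900.1 CPM, against 138.1 to 237.4 CPM in the other day 7 libraries. p7N3 replicate 3 had 3454 CPM, against 606.7 to 917.1 CPM in the other p7N3 libraries.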

How the results depend on the processing

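Directions of all 6 shares held in every alternative except that of p7N3 against day 7, which stood at -2.14 percentage points among DCs and ran from -0.055 to 0.18 when 1 library was left out. A comparison of shares with a library left out, or of replicates 1 to 3 only, could not reach 0.05. The counts of genes called moved as follows. For p7N3 against day 7, against 0, they were 3 with DESeq2, 228 without a filter, 24 with Scrublet scores removed, 83 in replicates 1 to 3 and 59 with at most 1 UMI of C1qa. They were 0 to 61 with 1 library left out, being 47 without day 7 replicate 3 and 61 without p7N3 replicate 4. For day 7 against day 3, against 16, they were 62 with DESeq2, 6 with RLE factors, 225 without a filter, 42 with Scrublet scores removed, 0 with at least 3 of the 4 genes and 34 without the 20 cells. They were 0 to 35 with 1 library left out, being 35 without day 7 replicate 3, 2 without day 3 replicate 3 and 0 without any of the other 5. Day 7 and p7N3 libraries of the same replicate number deviated from their group means with correlations of -0.03, -0.01, 0.09 and -0.04. Those of different numbers ran from -0.25 to 0.24. So few libraries cannot show whether the numbers pair the samples, and pairing was not examined for day 3. The replicate block gave 25 genes for p7N3 and 8 for day 7 against day 3. Against type 2 and type 1 DCs the counts were 2417 and 2019 without a filter, and 722 of 1451 and 373 of 762 genes after thinning, where fewer genes were tested. The causes of the other shifts were not tested.

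Of 120 genes followed against type 2 DCs, 4 changed sign. H2-Aa stood at -0.18 without a filter (edgeR adjusted p = 0.000928, then lower), -0.12 with at least 3 of the 4 genes and -0.033 with at most 1 UMI of C1qa, and ran from -0.018 (without day 3 replicate 3) to 0.13 when 1 library was left out. H2-Eb1 stood at -0.14 without a filter (edgeR adjusted p = 0.0407, then lower) and -0.067 with at least 3 of the 4 genes. With at most 1 UMI of C1qa C1qb stood at -0.19 and Apoe at -0.22, and Apoe stood at -0.12 without the 20 cells. Of 83 genes followed against type 1 DCs, 1 changed sign. Tgfb1 stood at -0.025 without a filter, -0.027 with Scrublet scores removed, -0.45 with at least 3 of the 4 genes, -0.028 with at most 1 UMI of C1qa and -0.091 without the 20 cells, and ran from -0.096 to 0.16 when 1 library was left out. In all, 9 genes lost their call against type 2 DCs and 12 of 83 against type 1 DCs under some alternative. None of the 20 largest changes of either comparison did. Conversely, 7 genes that had not passed against type 2 DCs did so under some alternative (Il1b, Flt3, H2-Aa, H2-Eb1, Cd74, Thbs1 and Clec12a), as did 4 of 6 genes followed for p7N3, namely Ccl17, Cd40 and Cd200 without a filter and Fabp5 in replicates 1 to 3.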
